A study of Homo sapiens with 5 samples.

Results

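The 39 genes described here belong to the unfolded protein response and the integrated stress response, and they were followed in RNA-seq of TOV21G, an ARID1A-mutated ovarian clear cell carcinoma cell line. The genes were chosen by name from a list of known pathway genes, with earlier results of these data known. Each was found in the deposited count table by its Ensembl identifier, 39 of 39 among 30476 identifiers. They were read as 2 arms. The first holds ATF4 and 19 of its target genes and partners (20 genes, the integrated stress response or ISR arm). The second holds the endoplasmic reticulum (ER) chaperones, degradation genes, stress sensors and XBP1 (19 genes, the ER arm).

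Parental TOV21G cells gave 1 library, labelled as control. EZH2 inhibitor-resistant (EIR) cells gave 4 libraries, from clone 3 and clone 4, each grown once untreated and once with GSK126, an inhibitor of the histone methyltransferase EZH2. EIR cells had been selected in GSK126 raised from 5 to 10, 15 and 20 uM before clones were picked, so the untreated EIR libraries also came from cells with a long exposure to the drug, and the ARID1A mutation is shared by all libraries. The dose and time of GSK126 in the treated libraries are not in the labels, and each clone is 1 line grown from picked cells.

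The ER senses unfolded protein through membrane proteins. PERK (encoded by EIF2AK3) phosphorylates the translation initiation factor eIF2, which slows protein synthesis but favors translation of ATF4, and ATF4 then turns on genes for amino acid synthesis, amino acid uptake and stress-induced death. Other kinases that sense amino acid shortage, viral RNA or heme act on the same factor, hence the name integrated stress response. IRE1 (ERN1) splices the XBP1 transcript, ATF6 is released by proteolysis, and both raise ER chaperones and degradation genes. Splicing of XBP1, translation of ATF4 and cleavage of ATF6 are not visible in gene counts, which give transcript levels only.

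Total counts ranged from 25479238 (clone 4 with GSK126) to 30764963 (untreated clone 3). All 39 members averaged 100 normalized counts or more, and their deposited counts ranged from 62 to 55449. The epithelial genes PAX8, KRT8 and KRT18 were high in all libraries (3031 to 18015 counts), whereas EPCAM had 398 counts in parental cells, 426 and 498 in clone 3, and 0 and 1 in clone 4. NAPSA and KRT7 were low (2 to 53 and 81 to 199 counts). What the loss of EPCAM counts in clone 4 has to do with the members was not tested. The leukocyte, endothelial and fibroblast markers found in the table (2, 2 and 3 genes) had at most 91 counts. As parental cells had 1 library, every comparison with them took its spread from the EIR libraries, and a difference between parental and EIR cells cannot be told apart from a difference of that library. In a bulk sample, fewer cells with a transcript and less RNA per cell cannot be told apart.

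Length-normalized levels placed a few genes of the ER arm at the top of both arms. In parental cells HSP90B1, the HSP90 of the ER, had 655 RPKM (counts scaled by transcript length and library total), followed by the calcium-binding chaperone CALR (539), the disulfide isomerase PDIA6 (363) and ATF4 (357). The stress-induced genes of the ISR arm were low on the same scale, with 10.0 RPKM for DDIT3 (CHOP, a pro-apoptotic transcription factor), 7.36 for TRIB3, a pseudokinase that restrains ATF4 and CHOP, and 3.57 for CHAC1, an enzyme that degrades glutathione. HSPA5, the best known ER chaperone, stood at 94.0 RPKM. HSP90B1 and CALR did not separate beyond their spread over the 5 libraries (459 to 676 and 381 to 598 RPKM). PDIA6 lay between 169 and 204 RPKM in the 4 EIR libraries, below ATF4, which lay between 234 and 260.

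The first question was which of the 39 genes changed in resistant cells. By DESeq2, 10 of 39 members (25.6%) passed an adjusted p of 0.05, all 10 lower in EIR cells. This share is that of all genes tested, of which 25.5% were called, and below that of the expressed genes (mean normalized count of 100 or more), of which 30.5% were called. The direction was one-sided in this fit, though not after the GC correction given below (7 lower, 2 higher). Without that correction 13.2% of all genes tested were called lower, and 16.3% of expressed genes. In the ISR arm 4 of 20 genes fell, and in the ER arm 6 of 19. At an unadjusted p under 0.05, 1 ISR gene was higher and 6 were lower, and 0 ER genes were higher and 6 were lower. edgeR called 2 ISR and 4 ER genes, all lower, and 11.1% of all genes. Without clone 3 with GSK126 the ISR count was 2.

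In 20 of 39 members (51.3%) all 4 EIR libraries lay below the parental library, against 40.6% of expressed genes, and in 7 of 39 (17.9%) all 4 lay above it, against 31.9%. The median log2 fold change was -0.25 in the ISR arm and -0.22 in the ER arm, against -0.06 over expressed genes and 0.00 over all genes tested. The plot of log2 ratios shows each member in each EIR library.

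**Figure D1:**
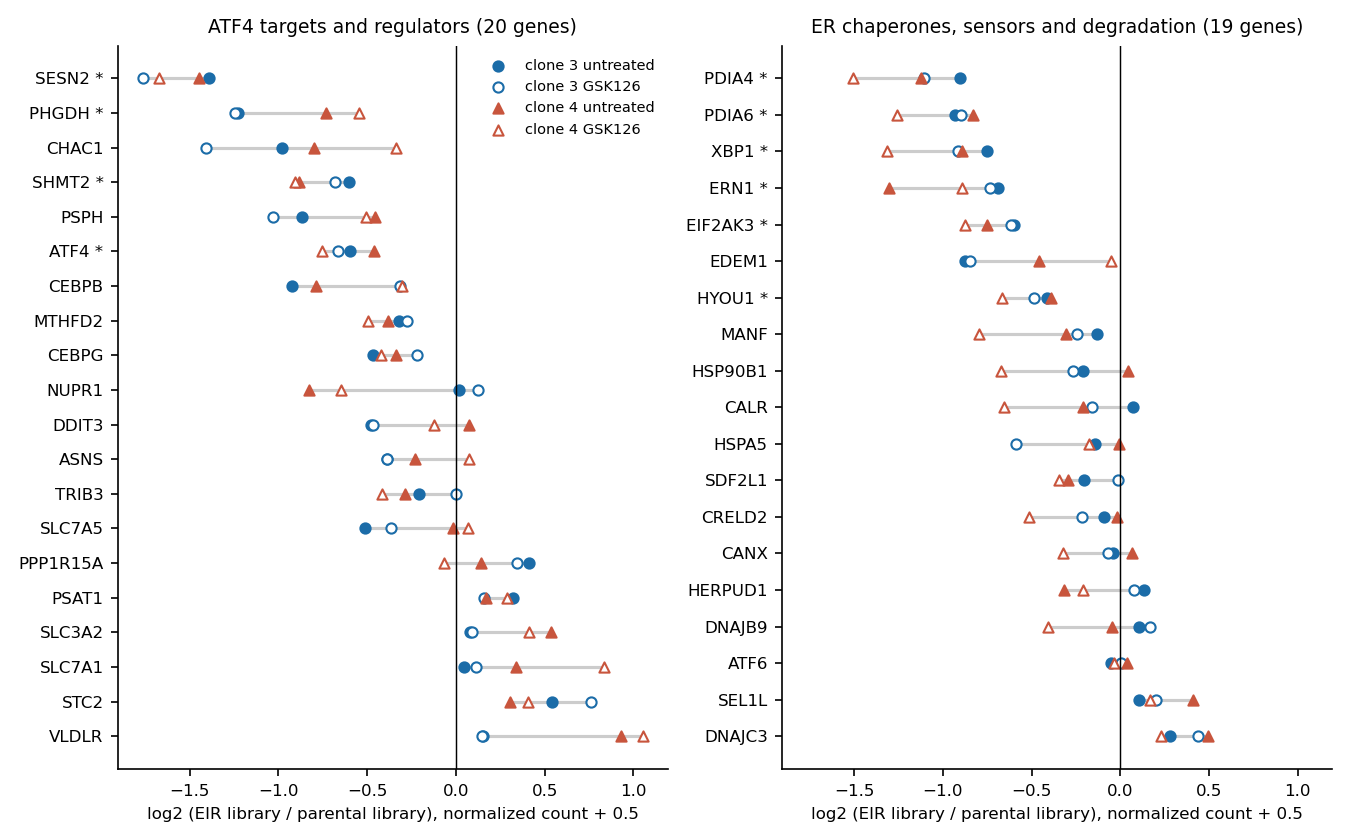
log2 ratio of each of the 4 EIR libraries to the parental library (normalized counts plus 0.5) for the 20 genes of the ISR arm (left) and the 19 of the ER arm (right), ordered by the DESeq2 log2 fold change. Circles are clone 3 and triangles clone 4, filled symbols are untreated and open symbols GSK126-treated, and stars mark the 4 and 6 genes past an adjusted p of 0.05. SESN2, PDIA4, PDIA6 and XBP1 lie farthest below 0 among the starred genes, whereas VLDLR and SLC7A1 separate clone 4 from clone 3 above 0.

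These ratios moved with base composition. Over 11377 expressed genes with a known GC content, the log2 ratio of an EIR library to the parental library had a Spearman correlation of -0.49 to -0.39 with the GC content of the transcript (a description over genes, which are not replicates and share the same parental library). The median mean log2 ratio was 0.27 for transcripts under 45% GC and -0.41 for those over 55%. The ISR arm had a median GC content of 56.4% and the ER arm 48.6%, against 48.3% for expressed genes. The calls of members between EIR and parental cells are therefore given with their value after a GC correction, in which the ratio was centered along GC content in each library. After it 5 of 20 ISR genes (3 lower, 2 higher) and 4 of 19 ER genes (4 lower, 0 higher) were called, and 20.4% of all genes. The ISR median moved from -0.25 to -0.05, and the ER median was -0.22 before and -0.21 after. Over expressed genes the median moved from -0.06 to 0.02.

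In the ISR arm, SESN2 differed most. SESN2 encodes a sestrin that binds leucine and restrains the growth kinase mTORC1, and it is a known ATF4 target. SESN2 (ENSG00000130766, plus strand of chromosome 1 from 28586029 to 28609002, GRCh37) had 1973 normalized counts in the parental library, 751 and 581 in clone 3 (untreated, GSK126) and 723 and 618 in clone 4. All 4 EIR libraries lay far below the parental library and close to each other, at 33.9% of the parental value on average. SESN2 thus fell by 1.56 on the log2 scale (SE 0.24, n = 4 against 1, DESeq2 adjusted p 3.08e-09). It was -1.16 after GC correction (adjusted p 3.87e-05), and the gene was called under all 12 alternatives with a refit (adjusted p 9.45e-10 to 0.0141). These 12 do not include a minimum log2 change of 1, which among the 10 called members only SESN2 and PDIA4 met.

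ATF4 itself (ENSG00000128272, plus strand of chromosome 22 from 39915700 to 39918688) had 15211 normalized counts in the parental library, 10044 and 9603 in clone 3 and 11061 and 9017 in clone 4. The 4 EIR libraries, 9931 ± 863 (SD, n = 4), all lay below the parental value. Its log2 fold change was -0.62 (SE 0.18, adjusted p 0.00576). After GC correction it was -0.35 (adjusted p 0.173), edgeR gave an adjusted p of 0.0622, and 7 of 12 alternatives called it (adjusted p 0.00205 to 0.173). The call was also lost without clone 3 with GSK126. Summing the libraries of each clone, so that clones rather than libraries were counted, ended the calls of ATF4, SHMT2, PHGDH, EIF2AK3, ERN1 and HYOU1, as did treatment as covariate, and left those of SESN2, PDIA4, PDIA6 and XBP1.

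The serine and one-carbon enzymes came next. SHMT2, the mitochondrial enzyme that takes a carbon unit from serine, had 4325 normalized counts in the parental library, 2849 and 2692 in clone 3 and 2345 and 2308 in clone 4. The log2 fold change of SHMT2 (ENSG00000182199, plus strand of chromosome 12 from 57623356 to 57628718) was -0.76 (SE 0.21, adjusted p 0.00194), with -0.38 (adjusted p 0.107) after GC correction and a range of 0.000542 to 0.107 over 12 alternatives. PHGDH, the first enzyme of serine synthesis, had 1955 normalized counts in the parental library, 834 and 825 in clone 3 and 1178 and 1340 in clone 4. All EIR values of both genes were below parental, and in both genes the clones did not overlap, with clone 4 the lower for SHMT2 and the higher for PHGDH. The log2 fold change of PHGDH (ENSG00000092621, plus strand of chromosome 1 from 120191034 to 120286841) was -0.91 (SE 0.35, adjusted p 0.0421), and it was called under only 2 of 12 alternatives (adjusted p 0.00499 to 0.290, and 0.290 after GC correction). Leaving out clone 3 with GSK126, untreated clone 3 or untreated clone 4 each ended this call. SHMT2 overlaps NDUFA4L2 on the opposite strand, so that reads of this pair may have been split.

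Other enzymes of the same route did not pass the test. PSPH, the last enzyme of serine synthesis, had a log2 fold change of -0.70 (adjusted p 0.0746). PSAT1, which acts between PHGDH and PSPH, had 2120 normalized counts in the parental library and 2366 to 2651 in the EIR group, all above parental (0.24, adjusted p 0.316). MTHFD2, a mitochondrial folate enzyme, was at -0.37 (adjusted p 0.0930), and ASNS, asparagine synthetase, at -0.22 (adjusted p 0.592). With GC correction MTHFD2 was called lower (-0.59, adjusted p 0.00176, range over 12 alternatives 0.00176 to 0.481). In this list of 6 enzymes 2 fell, 0 rose and the median log2 fold change was -0.53. Of all genes tested 25.5% were called (13.2% lower), and of expressed genes 30.5% (16.3% lower).

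The transcription factors other than ATF4 did not pass. DDIT3 had 272 normalized counts in the parental library, 195 and 197 in clone 3 and 286 and 250 in clone 4. Clone 4 thus spanned the parental value while clone 3 lay below it, with a log2 fold change of -0.23 over all EIR libraries (SE 0.35, adjusted p 0.682). DDIT3 overlaps MARS1 and MBD6 on the opposite strand, and the strand setting of the counting is not given in the sources used here. CEBPG, a dimer partner of ATF4, was at -0.36 (adjusted p 0.152) and at -0.59 after GC correction (adjusted p 0.00286), the only 1 of 12 alternatives in which it was called (adjusted p up to 0.524). CEBPB and NUPR1, both low, were at -0.56 and -0.28.

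CHAC1 had 163 normalized counts in the parental library, 82.4 and 61.3 in clone 3 and 93.6 and 129 in clone 4. All EIR libraries were below parental, but their spread was wide (91.6 ± 28.4, SD, n = 4) and the log2 fold change of -0.83 (SE 0.51) did not pass (adjusted p 0.238). Of the other stress effectors, STC2, a secreted glycoprotein, lay above parental in all 4 EIR libraries (1150 against 1419 to 1947 normalized counts; 0.51, adjusted p 0.115), and after GC correction it was called higher (0.82, adjusted p 0.00331; range over alternatives 0.00331 to 0.434). PPP1R15A (GADD34), which recruits the phosphatase that restores eIF2, was at 0.22 (adjusted p 0.592) and at 0.61 (adjusted p 0.0498, range over alternatives 0.0498 to 0.779) after GC correction. TRIB3 was at -0.22 (adjusted p 0.586) and VLDLR, a lipoprotein receptor, at 0.63 (adjusted p 0.296). The amino acid transporter SLC7A5, its heavy chain partner SLC3A2 and the cationic amino acid transporter SLC7A1 were at -0.19, 0.29 and 0.37. Of these 3 transporters 0 were called, against 25.5% of all genes tested.

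**Figure D2:**
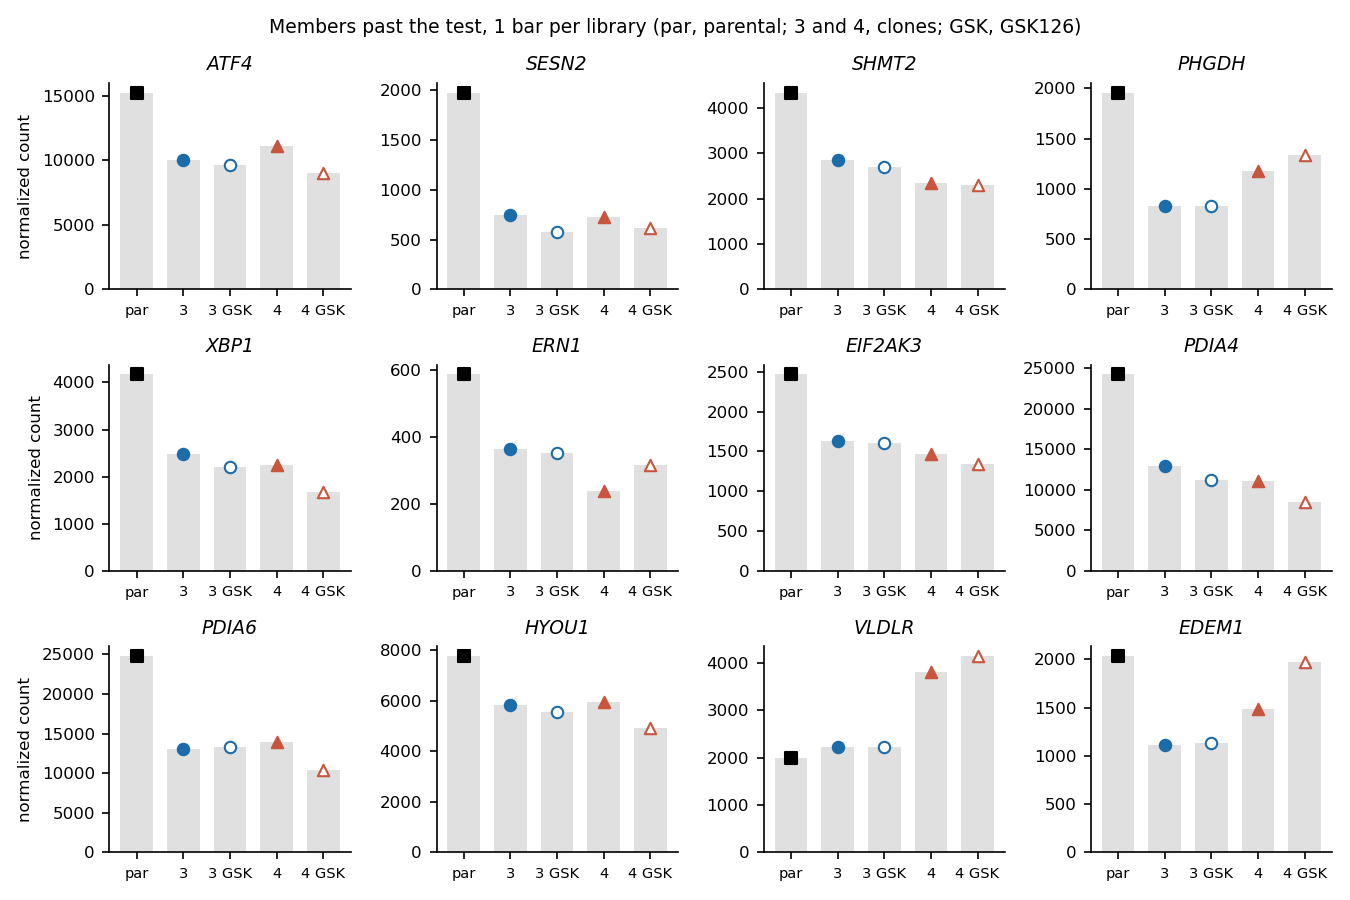
DESeq2-normalized count (y axis, from 0) in each of the 5 libraries for the 12 members past an adjusted p of 0.05 in EIR against parental cells or in clone 4 against clone 3. The parental bar (square) is the highest in the first 10 panels and in EDEM1, and VLDLR is highest in clone 4.

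In the ER arm the genes that fell were PDIA4 and PDIA6, XBP1, the sensors EIF2AK3 and ERN1, and HYOU1, while the most abundant chaperones did not pass the test. PDIA4 and PDIA6 form and rearrange disulfide bonds in newly made secretory proteins. PDIA4 (ENSG00000155660, minus strand of chromosome 7 from 148700154 to 148725754) had 24209 normalized counts in the parental library, 12930 and 11245 in clone 3 and 11134 and 8517 in clone 4. PDIA6 (ENSG00000143870, minus strand of chromosome 2 from 10923517 to 10978103) had 24828 in parental cells, 13003 and 13342 in clone 3 and 13958 and 10369 in clone 4. All EIR libraries of both genes lay well below the parental one, with means of 45.3% and 51.0% of parental. The log2 fold change was -1.14 (SE 0.27, adjusted p 0.000263) for PDIA4 and -0.97 (SE 0.23, adjusted p 0.000251) for PDIA6. Both calls held under all 12 alternatives (adjusted p at most 0.0352 and 0.0338), and after GC correction the values were -0.93 and -0.96. PDIA6 overlaps ATP6V1C2 on the opposite strand.

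XBP1 (ENSG00000100219, minus strand of chromosome 22 from 29190543 to 29196585), the transcription factor made from the spliced transcript, had 4172 normalized counts in the parental library, 2477 and 2215 in clone 3 and 2251 and 1676 in clone 4. The 4 EIR libraries lay at 51.7% of parental on average. XBP1 thus had a log2 fold change of -0.95 (SE 0.27, adjusted p 0.00290), and it was called under all 12 alternatives (adjusted p 2.66e-05 to 0.0490, with -0.82 after GC correction). The count sums spliced and unspliced transcripts.

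Of the 3 sensors, ERN1 and EIF2AK3 fell, and ATF6 did not pass the test. EIF2AK3 (ENSG00000172071, minus strand of chromosome 2 from 88856259 to 88991036) had 2469 normalized counts in the parental library, 1632 and 1611 in clone 3 and 1465 and 1346 in clone 4. Its log2 fold change was -0.71 (SE 0.20, adjusted p 0.00291), larger after GC correction (-1.003, adjusted p 6.13e-06), and 10 of 12 alternatives called it (adjusted p up to 0.128). ERN1 (ENSG00000178607, minus strand of chromosome 17 from 62116440 to 62208179), the lowest gene of this arm per length, had 586 normalized counts in the parental library, 364 and 353 in clone 3 and 237 and 315 in clone 4. The difference was -0.89 on the log2 scale (SE 0.33, adjusted p 0.0305), and only 4 of 12 alternatives called it (adjusted p 0.0283 to 0.189; 0.0972 after GC correction). ATF6 had 2775 normalized counts in the parental library and 2678 to 2843 in the EIR group, the smallest change in the arm (-0.01, SE 0.14, adjusted p 0.963).

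HYOU1, an ER nucleotide exchange factor and chaperone of the HSP70 class, had 7786 normalized counts in the parental library, 5857 and 5558 in clone 3 and 5946 and 4911 in clone 4. All 4 EIR libraries were below parental. The log2 fold change of HYOU1 (ENSG00000149428, minus strand of chromosome 11 from 118914899 to 118927938) was -0.48 (SE 0.19, adjusted p 0.0384). It was -0.18 after GC correction (adjusted p 0.535), and 5 of 12 alternatives called it (adjusted p 0.0187 to 0.535). It was lost without clone 3 with GSK126, without untreated clone 3 and without untreated clone 4 (each leaving 3 EIR libraries). The call of ERN1 was lost without either library of clone 3 and without clone 4 with GSK126.

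The major chaperones did not pass the test. HSPA5 (BiP, the main HSP70 of the ER and the usual marker of ER stress) had 11073 normalized counts in the parental library, 10045 and 7372 in clone 3 and 11004 and 9815 in clone 4. All 4 were below parental (9559 ± 1546, SD, n = 4), but untreated clone 4 nearly reached it, and clone 3 with GSK126 was the lowest. The log2 fold change of HSPA5 (ENSG00000044574, minus strand of chromosome 9 from 127997132 to 128003661) was -0.21 (SE 0.27, adjusted p 0.614). HSP90B1 had 54788 normalized counts in the parental library, 47369 and 45513 in clone 3 and 56406 and 34382 in clone 4 (-0.26, adjusted p 0.583). CALR had 30763 in parental cells, 32370 and 27593 in clone 3 and 26543 and 19508 in clone 4 (-0.22, adjusted p 0.659). CRELD2, a secreted ER stress-induced protein, had 1076 in parental cells, 1009 and 926 in clone 3 and 1060 and 752 in clone 4 (-0.20, adjusted p 0.636). In HSP90B1 and CALR 1 EIR value lay above the parental one and the others below, and in CRELD2 all 4 lay below it.

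The remaining ER folding genes, CANX, DNAJB9, DNAJC3, MANF and SDF2L1, had log2 fold changes from -0.35 (MANF, adjusted p 0.427) to 0.37 (DNAJC3, adjusted p 0.150), and 0 of these were called. Of the 12 folding genes 3 fell and 0 rose, with a median of -0.21. This share of 25% called stands beside 25.5% of all genes tested and 30.5% of expressed genes. Of the 3 degradation genes, HERPUD1, EDEM1 and SEL1L, 0 were called, with values of -0.07, -0.52 and 0.23. DNAJC3 was called higher under total count scaling (adjusted p 0.0243, range over alternatives 0.0243 to 0.751), and EDEM1 lower without clone 4 with GSK126 (adjusted p 0.0373, range 0.0373 to 0.632). Annotated pseudogenes named after the gene exist for ATF4 (4), XBP1 (1), HSPA5 (1), ASNS (6), PSAT1 (4), PSPH (1), SLC7A5 (2) and MTHFD2 (7), so that their counts may share reads. Members named beyond those past the test and the 3 largest of each arm were chosen after their values were seen.

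Promoter sequences were read to see which members carry the elements through which the responses are known to act. RefSeq promoters (GRCh38.p14, 250 bases before to 50 bases after each start, both strands searched) were matched for 36 of 39 members, all but NUPR1, PSPH and SHMT2. The ER stress element, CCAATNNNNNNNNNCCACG, which binds ATF6 together with NF-Y, was held by 0.0769% of 35116 promoters and by 7 ER members: CALR, CANX, CRELD2, HSP90B1, HSPA5, PDIA6 and XBP1. The shorter ER stress element II, ATTGGNCCACG, was held by 0.0541% of promoters and by HERPUD1, HYOU1 and SDF2L1. Neither was in an ISR promoter. The stretches below are upstream of the start, written 5′ to 3′ on the strand of the gene, with the element in capitals, read on either strand. They show the element in genes that fell (PDIA6, XBP1, HYOU1) and in genes that did not pass the test (HSPA5, HSP90B1, HERPUD1).
PDIA6 (chr2:10812841-10812883, minus strand): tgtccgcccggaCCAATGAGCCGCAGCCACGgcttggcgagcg
XBP1 (chr22:28800591-28800633, minus strand): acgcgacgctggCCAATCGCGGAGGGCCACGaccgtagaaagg
HYOU1 (chr11:119057262-119057402, minus strand): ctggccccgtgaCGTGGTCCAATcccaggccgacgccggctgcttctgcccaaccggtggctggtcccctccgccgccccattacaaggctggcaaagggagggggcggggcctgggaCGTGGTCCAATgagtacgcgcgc
HSPA5 (chr9:125241379-125241421, minus strand): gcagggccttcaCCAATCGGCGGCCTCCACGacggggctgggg
HSP90B1 (chr12:103930204-103930351, plus strand): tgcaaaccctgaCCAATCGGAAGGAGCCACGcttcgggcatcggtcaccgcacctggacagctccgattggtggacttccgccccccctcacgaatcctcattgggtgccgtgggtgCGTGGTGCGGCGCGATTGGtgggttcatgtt
HERPUD1 (chr16:56932013-56932047, plus strand): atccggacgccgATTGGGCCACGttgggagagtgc

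Of the 7 members with the ER stress element 2 fell (median log2 fold change -0.22, range -0.97 to -0.09), of the 3 with element II 1 fell (median -0.21), and of the 9 ER members with neither 3 fell (median -0.35, range -1.14 to 0.37). PDIA4, ERN1 and EIF2AK3 were among these 9. Over the whole ER arm 31.6% of members were called, and 30.5% of expressed genes (16.3% called lower). A difference between the groups by element was not tested. HSPA5 and PDIA6 each carry 1 match, at bases -66 to -48 and -86 to -68 from the start, and of this pair PDIA6 was called. Whether these 2 genes differed from each other was not tested. A match describes letters in the window, not occupancy.

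For the ISR arm the C/EBP-ATF response element, TGATGNAA, was searched, which binds ATF4 with a C/EBP partner. It is short, and 3.62% of promoters held it. It lay in ASNS, CEBPG, CHAC1, SLC3A2 and SLC7A1, 5 of 17 ISR members with a promoter, and in HERPUD1, 1 of 19 of the ER arm. None of these 6 genes was called in EIR against parental cells (log2 fold changes -0.83 to 0.37). The windows of the called genes ATF4, SESN2 and PHGDH held no match, and the called gene SHMT2 had no promoter to search. Elements outside the window or with other letters were not searched. In ASNS, CEBPG and CHAC1 the match lay upstream of the start, and these are shown.
ASNS (chr7:97872457-97872488, minus strand): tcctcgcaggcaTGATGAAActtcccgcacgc
CEBPG (chr19:33374059-33374090, plus strand): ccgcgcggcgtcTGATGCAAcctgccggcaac
CHAC1 (chr15:40953250-40953281, plus strand): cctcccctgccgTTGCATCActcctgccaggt

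The GC correction changed the ISR calls more than the ER calls. Of the 4 ISR genes called before, 1 was called after it, SESN2, and CEBPG, MTHFD2 (lower), STC2 and PPP1R15A (higher) were added. Of the 6 ER genes, EIF2AK3, XBP1, PDIA4 and PDIA6 were called after it, and ERN1 and HYOU1 were not.

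**Figure D3:**
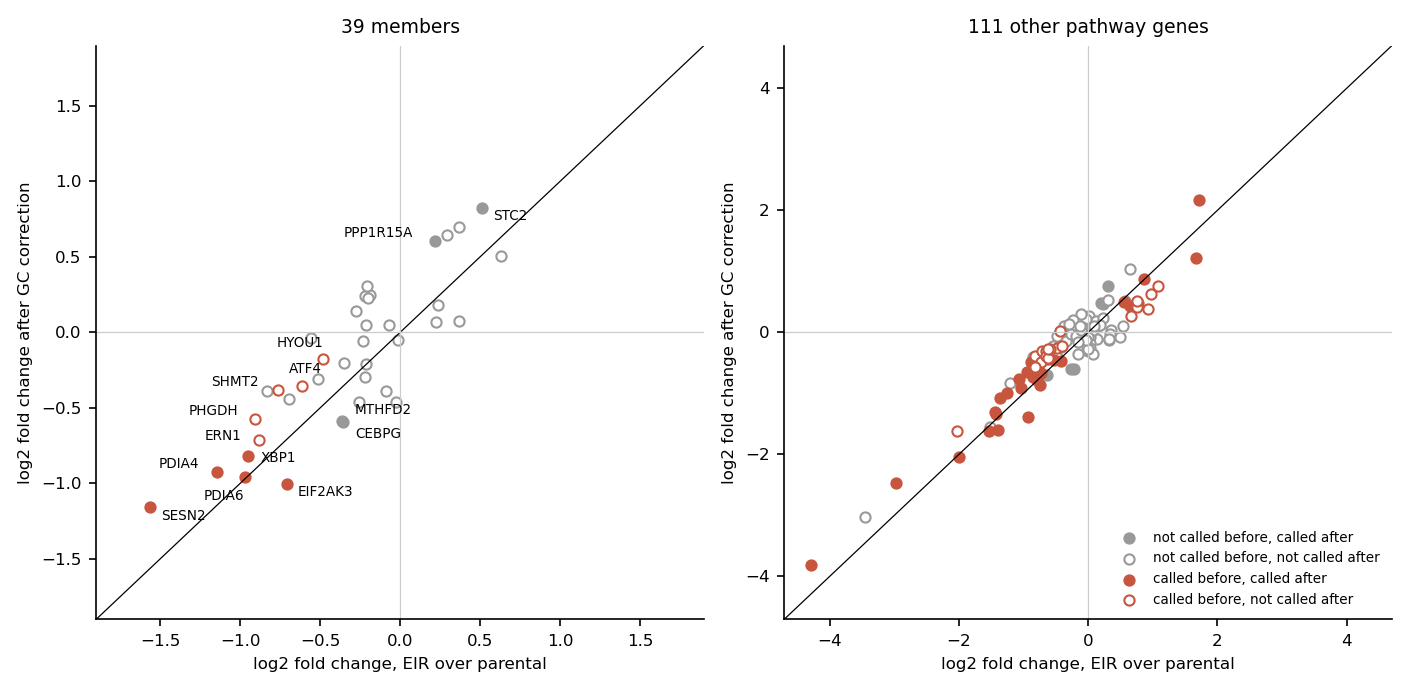
DESeq2 log2 fold change of EIR over parental cells before (x axis) and after (y axis) GC correction for the 39 members (left) and 111 other pathway genes (right, wider axes). Red points were called before correction, filled points were called after it, and the line marks equal values. SESN2, PDIA4, PDIA6, XBP1 and EIF2AK3 are red and filled, whereas ATF4, SHMT2, PHGDH, ERN1 and HYOU1 are red and open, above the line.

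The clones were then read separately against the same parental library, so the counts below are not independent. In clone 3, 6 of 20 ISR and 6 of 19 ER genes were called, of which 1 was higher (STC2, 0.65, adjusted p 0.00656), against 29.2% of all genes tested. In clone 4, 8 of 20 ISR and 7 of 19 ER genes were called, of which 3 were higher, against 32.9%. Without clone 3 with GSK126 the counts for clone 3 were 2 and 2, and without untreated clone 3 they were 3 and 3, while clone 4 had 3 ISR genes in either case. SESN2 was at -1.57 in clone 3 and -1.56 in clone 4, PDIA4 at -1.002 and -1.30, PDIA6 at -0.91 and -1.03, XBP1 at -0.83 and -1.09, and EIF2AK3 at -0.61 and -0.81. Each of these 10 values was called. ATF4 was at -0.63 and -0.60, both called, and both lost after GC correction (adjusted p 0.0564 and 0.133). The 3 genes higher in clone 4 were VLDLR (0.99, adjusted p 2.52e-07) and the transporters SLC3A2 (0.47, adjusted p 0.0268) and SLC7A1 (0.61, adjusted p 0.0282). Of 10 alternatives VLDLR was called under 10, SLC3A2 under 7 and SLC7A1 under 6, and STC2 in clone 3 under 8.

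The difference between clones was tested in the 4 EIR libraries alone, where no parental library enters. Of 39 members 3 passed (7.69%), all higher in clone 4, against 9.81% of all genes called and 3.3% called higher. None was called lower by DESeq2 (0 ISR and 2 ER genes at an unadjusted p under 0.05) or by edgeR (2 and 4). Without untreated clone 4, clone 4 was represented by its GSK126 library alone. In that library ER genes such as XBP1, HSP90B1, DNAJB9, PDIA4, PDIA6, CALR and MANF lay below both clone 3 libraries. EDEM1 lay above both. VLDLR (ENSG00000147852, plus strand of chromosome 9 from 2621182 to 2660056) had 2218 and 2214 normalized counts in clone 3 (untreated, GSK126) and 3808 and 4144 in clone 4, beside 1998 in parental cells. The clone 3 libraries agreed closely and the clone 4 libraries lay well above them. VLDLR had a log2 fold change of 0.84 (SE 0.17, adjusted p 4.4e-05), and it was called under all 11 alternatives (adjusted p at most 0.0188). VLDLR overlaps the antisense gene VLDLR-AS1.

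PHGDH, with the values given above, was 0.59 higher on the log2 scale in clone 4 (SE 0.21, adjusted p 0.0468). EDEM1 (ENSG00000134109, plus strand of chromosome 3 from 5229331 to 5261643), which directs misfolded glycoproteins to degradation, had 1109 and 1132 normalized counts for clone 3, 1481 and 1966 for clone 4 and 2035 for parental cells. It was 0.60 higher in clone 4 (SE 0.20, adjusted p 0.0351). Both calls were made under 8 of 11 alternatives and both were lost without untreated clone 3, without clone 3 with GSK126 and without clone 4 with GSK126 (adjusted p up to 0.406 for PHGDH and 0.351 for EDEM1).

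The transporters did not pass between clones. SLC7A1, SLC7A5 and SLC3A2 were higher in both libraries of clone 4 than in both of clone 3, with log2 fold changes of 0.50, 0.46 and 0.38 (adjusted p 0.0973, 0.158 and 0.199). After GC correction all 3 were called (0.57, 0.55 and 0.45), which raised the count in the ISR arm from 2 to 5. In all, the clone 4 libraries both lay above the clone 3 libraries for 10 members and below for 14, against 27.8% and 35.3% of expressed genes. The arms differed in this, with 9 above and 6 below among the 20 ISR genes. Among the 19 ER genes 1 lay above and 8 below. NUPR1, a small stress-induced chromatin protein, had 119 and 129 normalized counts for clone 3, 66.1 and 75.1 for clone 4 and 118 for parental cells (-0.82, SE 0.48, adjusted p 0.391). CHAC1 was at 0.62 (adjusted p 0.645), CALR at -0.40 (adjusted p 0.0969) and ERN1 at -0.40 (adjusted p 0.601).

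GSK126 was asked about last, within the EIR clones. DESeq2 called 0 of 39 members between the 2 treated and 2 untreated libraries, and 0.00335% of all genes (1 of 29847). The count at an unadjusted p under 0.05 was also 0, and edgeR gave 0 on both scales. In the fit blocked on clone DESeq2 called 0 members, 2 were below an unadjusted p of 0.05 (CALR and HSP90B1), and edgeR with the block called 0, with 2 at an unadjusted p under 0.05. The values below are therefore descriptions.

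The ER folding genes were lower with GSK126 in most pairs. In clone 3, 8 of 12 were lower with GSK126 (median log2 ratio -0.07, against 0.03 over expressed genes), and in clone 4 12 of 12 (median -0.39, against -0.03). Of expressed genes 41.3% were lower in clone 3 and 55.2% in clone 4. In both clones 8 of 12 folding genes were lower (66.7%), against 22.4% of expressed genes, and 10 of 19 in the ER arm (52.6%) against 5 of 20 in the ISR arm (25%). HSP90B1 was at -0.06 in clone 3 and -0.71 in clone 4, CALR at -0.23 and -0.44, PDIA4 at -0.20 and -0.39, CRELD2 at -0.12 and -0.50, and HSPA5 at -0.45 and -0.17. Across both clones the fitted log2 fold changes were -0.39 (SE 0.25) for HSP90B1, -0.34 (SE 0.27) for CALR, -0.31 (SE 0.24) for CRELD2 and -0.30 (SE 0.24) for HSPA5, each with a DESeq2 adjusted p of 0.9999. Over the alternatives, leaving out 1 library included, these values ranged from -0.62 to -0.20, -0.62 to -0.10, -0.49 to -0.17 and -0.52 to -0.13 in the same order.

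Clone 4 with GSK126 had the fewest counts of all libraries, and its log2 ratio to untreated clone 4 had a Spearman correlation of 0.30 with GC content over expressed genes, against -0.20 in clone 3. After GC correction 12 of 12 folding genes had a negative fitted log2 fold change, with a median of -0.22 against 0.01 over expressed genes. The median without correction was -0.25 (11 of 12 negative), against -0.02 over expressed genes. The part of this library in the pattern was not tested. XBP1 was at -0.16 in clone 3 and -0.43 in clone 4.

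**Figure D4:**
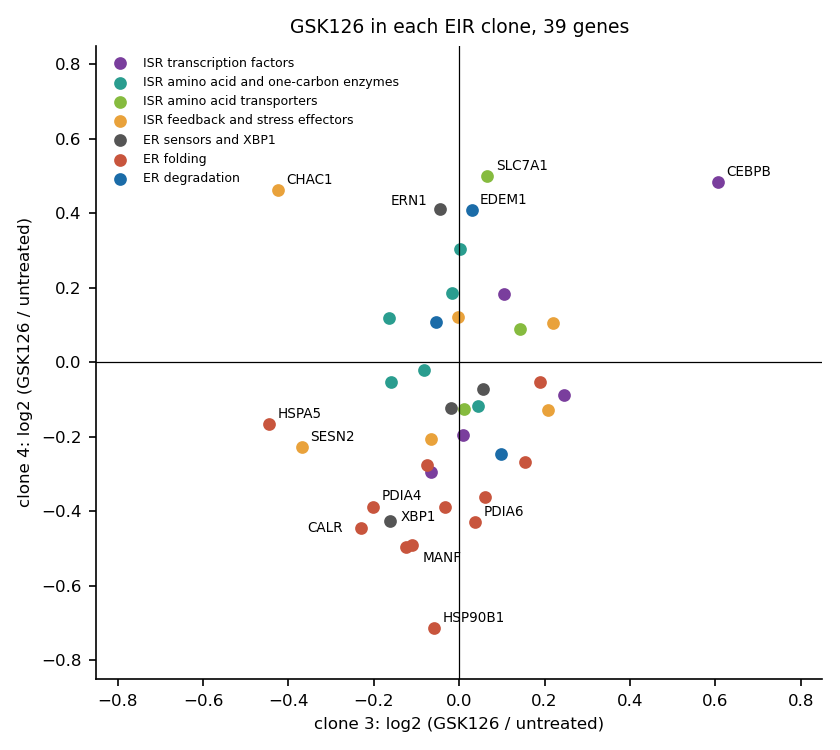
log2 ratio of GSK126-treated to untreated cells (normalized counts plus 0.5) in clone 3 (x axis) and clone 4 (y axis) for the 39 members, colored by list. All 12 ER folding genes lie below 0 in clone 4, with HSP90B1 lowest (-0.71), while CEBPB is above 0 in both clones (0.61 and 0.48). No member passed the test of GSK126.

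In the ISR arm CEBPB had the largest difference. It had 90.7 normalized counts in untreated clone 3 and 138 with GSK126, 99.7 and 140 in clone 4, and 172 in parental cells. Both treated libraries lay above both untreated ones and below parental (0.53, SE 0.40, DESeq2 adjusted p 0.9999). CEBPB overlaps the antisense gene CEBPB-AS1. SESN2 was lower in both clones (-0.37 and -0.23), SLC7A1 had 1448 and 1516 normalized counts in clone 3 and 1771 and 2504 in clone 4, and ATF4 was at -0.07 and -0.30. The median of the arm was 0.01 in clone 3 and 0.03 in clone 4.

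The rest of the pathway was read from lists of other genes, 111 of 112 found in the table. These lists were chosen with earlier results of these data known, so their shares of called genes are descriptions. Of 22 further ATF4 target genes 15 were called in EIR against parental cells, 13 lower and 2 higher, with a median of -0.99, against 25.5% of all genes tested and 30.5% of expressed genes called. After GC correction 13 were called (11 lower, 2 higher), and by edgeR 12 (11 lower, 1 higher). DDIT4 (REDD1), an inhibitor of mTORC1 like SESN2, had 30235 normalized counts in the parental library, 3446 and 2947 in clone 3 and 4577 and 4362 in clone 4 (-2.98, adjusted p 1.18e-20). NIBAN1 had 4074 in the parental library and 688 to 1393 in the EIR group (-2.002, adjusted p 7.12e-06). ATF5, a transcription factor that is itself induced through eIF2, went the other way, with 169 in the parental library and 472 to 684 in the EIR group (1.71, adjusted p 1.12e-06). The cystine transporter SLC7A11 was the other gene that rose (1.66, adjusted p 0.000932, 0.0698 in edgeR).

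Cytosolic aminoacyl-tRNA synthetases, many of which are also ATF4 targets, split in direction, with 6 of 20 lower and 3 higher (median -0.06). WARS1, the tryptophan enzyme, had 13490 normalized counts in the parental library and 4275 to 5869 in the EIR group (-1.45, adjusted p 5.72e-07), QARS1 was at -0.95 and YARS1 at -0.86. Of 15 genes of eIF2, its kinases, exchange factor and phosphatase 1 fell and 2 rose: PPP1CA (-0.71), EIF2S1 (0.75) and PPP1CB (0.67). None of these 3 was called after GC correction (adjusted p 0.0615, 0.193 and 0.193).

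Of 14 other ER folding genes 5 fell and 2 rose (median -0.23). SIL1, an exchange factor of HSPA5, had 2956 normalized counts in the parental library and 950 to 1358 in the EIR group (-1.36, adjusted p 4.23e-06), and PPIB, a prolyl isomerase, was at -0.83 (adjusted p 0.00659). ERO1B, an oxidase that recharges disulfide isomerases, rose (0.93, adjusted p 0.0170, and 0.38 with adjusted p 0.433 after GC correction). Of 13 other degradation genes 3 fell (OS9 at -0.76 and EDEM2 at -0.65 among them) and 0 rose, a split that was 2 lower and 2 higher after GC correction, and of 20 genes of entry to and exit from the ER 6 fell and 2 rose (SPCS3 0.97, SEC11C 0.86, SSR4 -0.89). Of 7 other regulators 2 fell (ATF6B -0.62, MBTPS1 -0.41) and 1 rose (MBTPS2, a protease that frees ATF6, 1.08), with 0 called after GC correction (1 at an unadjusted p under 0.05) and 0 in edgeR (3). In 111 genes together 36 fell and 12 rose, with a median of -0.23 against -0.06 over expressed genes. After GC correction 27 were called lower and 8 higher (median -0.13, against 0.02 over expressed genes), and by edgeR 25 lower and 3 higher. Of all genes tested, 25.5% were called by DESeq2 (13.2% lower), 20.4% after GC correction and 11.1% by edgeR. Of expressed genes 30.5% were called by DESeq2 (16.3% lower). The same shares stand beside the counts of the single lists.

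**Figure D5:**
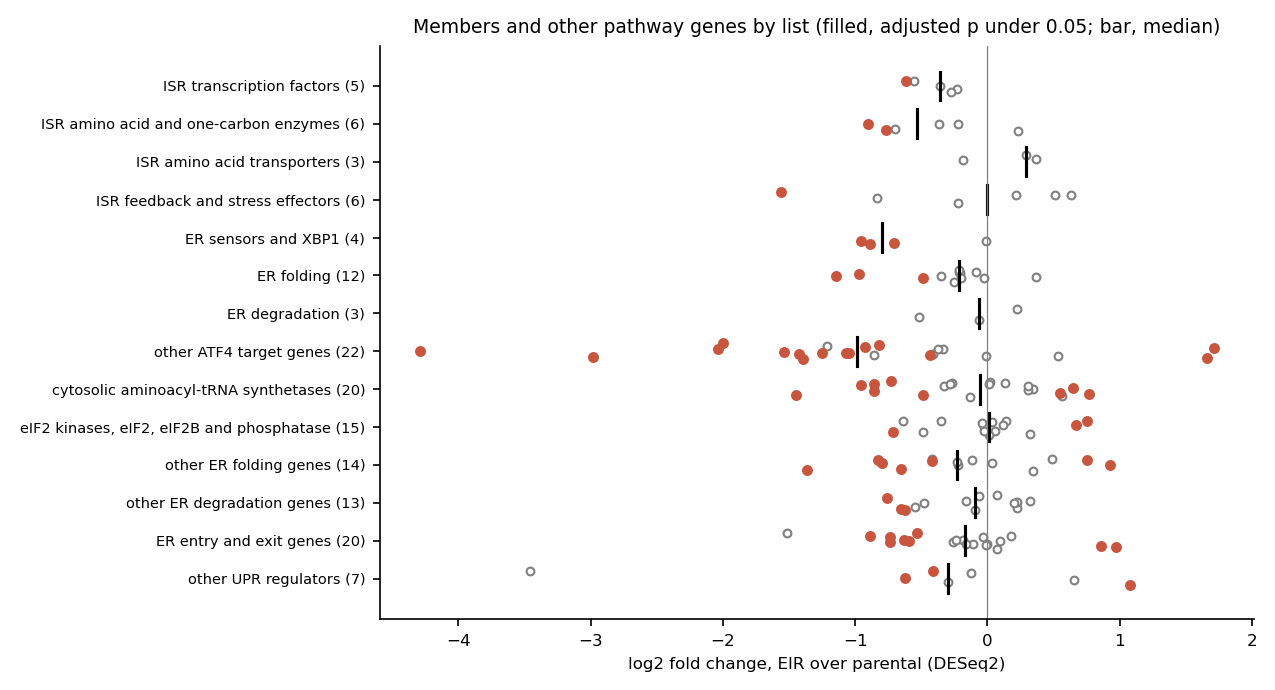
DESeq2 log2 fold change of EIR over parental cells for each of the 39 members and 111 other pathway genes, 1 row per list with its number of genes in brackets. Filled points passed an adjusted p of 0.05 and black bars are medians, from -0.99 in the other ATF4 targets to 0.29 in the amino acid transporters.

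Between the clones 9 of the 111 genes passed, near the 9.81% of all genes called. KDELR3, a receptor that returns ER proteins from the Golgi, had 635 and 584 normalized counts for clone 3 and 185 and 232 for clone 4 (-1.56, adjusted p 1.1e-06), beside 1169 in the parental library. TRAF2, an adaptor of IRE1, was lower in clone 4 (-0.90, adjusted p 0.00597), as was the proline enzyme PYCR1 (-0.77, adjusted p 0.00108) and the signal peptidase subunit SPCS3 (-0.54, adjusted p 0.0228). JDP2 (1.001, adjusted p 0.00297), SLC7A11 (0.78, adjusted p 0.00173) and the exchange factor subunit EIF2B5 (0.59, adjusted p 0.0316) were higher in clone 4. With GSK126, in the fits without the clone block, DESeq2 and edgeR called 0 of the 111, with 0 at an unadjusted p under 0.05 in both.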

How the data were processed

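The authors aligned paired-end reads of stranded total RNA libraries to hg19 with bowtie2 and deposited, per gene, the estimated counts (expected counts) of RSEM with an Ensembl annotation of unstated release. The methods of the study and the submitters' processing notes differ on the RSEM version (1.2.3 in the notes). The values were whole numbers and were used as deposited. Symbols, GRCh37 coordinates, GC content and length (canonical transcript) came from GENCODE release 44 mapped to GRCh37 (95.8% of identifiers matched, 3.06% of counts unmatched).

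Genes were compared by the Wald test (two-sided) of DESeq2 1.42.0, the tool of the study, run in R 4.3.3 with its default size factors. Calls were made at a p below 0.05 after Benjamini-Hochberg adjustment across all genes, with edgeR 4.0.16 (quasi-likelihood) as alternative. EIR libraries were compared with parental cells as 1 group (4 against 1), per clone (3 groups), with each other (clone 4 against clone 3, treatment as covariate) and by treatment (2 against 2). Other alternatives were TMM and total count scaling, a loess correction for GC content, filters of 10 counts in all libraries of a fit or in 2 of them, a log2 change of at least 1, leaving out each EIR library, summing each clone and the replicate block. Clone numbers pair the libraries, since both libraries of a number are the same picked clone (correlation of deviations from group means 0.86). Both libraries of a clone come from the same picked cells, and the labels name no separate cultures, so p-values measure the spread between these 4 libraries. Ratios of single libraries used a pseudocount of 0.5, and expressed genes had a mean of at least 100 normalized counts. The fits were tested on simulated data. Promoter sequences are RefSeq (GRCh38.p14) and no coordinates were converted.

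Members given with the value of each library are ATF4, DDIT3, XBP1 and HSPA5, those past the threshold in a comparison that does not split EIR clones against parental cells, and the 3 with the largest change per arm and comparison. Other pathway genes were the 3 largest changes past the threshold per list with at least 100 normalized counts, of which 1 is not reported here. The members and lists were chosen with earlier results of these data known.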

Additional observations from a re-analysis of the deposited data

Results flagged for a closer look

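The clones differed, by the test of clone 4 against clone 3, for VLDLR (0.84 on the log2 scale), EDEM1 (0.60) and PHGDH (0.59), as given above with their alternatives. This test compares the clones with each other, without the parental library. Whether the effect of resistance differed was not tested. PHGDH lay below parental in both clones, less so in clone 4.

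Opposite differences with GSK126 in the 2 clones were not tested and rest on 1 pair of libraries a clone. CHAC1 was at -0.42 in clone 3 and 0.46 in clone 4, with 61.3 to 129 normalized counts in the EIR libraries. ERN1 (-0.044 and 0.41), PDIA6 (0.037 and -0.43), DDIT3 (0.01 and -0.20), PHGDH (-0.016 and 0.19) and VLDLR (-0.003 and 0.12) had log2 ratios close to 0 in clone 3.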

How the results depend on the processing

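No call for a named member reversed under any alternative. The calls counted next are those of EIR against parental cells and of clone 4 against clone 3. Across their alternatives, 112 values of called members stayed past the threshold and 41 did not. Calls of a single clone against parental cells are not in this count. Over all comparisons 92 arm medians moved by less than the spread between libraries and 20 by more. In EIR against parental cells, the 4 ISR genes became 2 in edgeR, 1 with summed clones, 1 with treatment as covariate and 1 at a 2-fold minimum, and the 6 ER genes became 3, 3 and 1 in the last 3 of these settings. At the 2-fold minimum clone 3 had 2 ISR and 1 ER genes and clone 4 had 1 and 4 against parental cells, and between clones 0 and 0. Clone 4 against clone 3 gave 5 ISR genes with GC correction, 4 in edgeR and 4 without treatment as covariate, against 2. The cause of these changes was not tested.

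Leaving out 1 EIR library gave 2 to 4 ISR and 4 to 6 ER genes in EIR against parental cells, 2 to 6 and 2 to 7 in clone 3, 3 to 6 and 5 to 10 in clone 4, 1 to 3 and 0 to 8 between clones, and 0 and 0 for GSK126. The highest ER count between clones came without untreated clone 4, which left clone 4 with its GSK126 library alone. That library was assumed to vary like the clone 3 libraries. Of these genes EDEM1 was higher in clone 4 and the others were lower. The replicate block for GSK126 called 0 ISR and 0 ER genes, in edgeR and with GC correction too. Over all genes, 4157 calls in EIR against parental cells became 2024 in edgeR, 1914 with summed clones and 1998 with treatment as covariate. Leaving out 1 library of clone 3 gave 1983 or 2309 of 4925 calls for clone 3, 3339 or 3341 of 5368 for clone 4, and 831 or 875 of 1738 between clones, where leaving out untreated clone 4 gave 2800. GSK126 gave 1 call, 0 in edgeR, 4 with the block, 7 with block and GC correction, and up to 25 without untreated clone 3. The lowest count of a member was 62, and the members with the fewest counts, NUPR1, CHAC1 and CEBPB, had SEs of 0.54, 0.51 and 0.42 on the log2 scale in EIR against parental cells.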

Other observations

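Treatment with GSK126 gave small and mostly negative values in 2 other lists. In the fits without the clone block 0 genes were called by DESeq2 (0 at an unadjusted p under 0.05, and the same in edgeR). Of 20 cytosolic aminoacyl-tRNA synthetases 18 had a negative fitted log2 fold change (median -0.11), and of 20 genes of ER entry and exit 17 (median -0.09), against -0.02 over expressed genes, of which 6303 of 11564 were negative. Read per clone, 10 and 8 of the 20 genes lay below the untreated value in clone 3 and clone 4 alike. The medians were -0.04 and -0.04 for clone 3 and -0.09 and -0.17 for clone 4. After GC correction the counts were 18 and 16, with medians of -0.08 and -0.07 against 0.01.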
